A study of Mus musculus with 4 samples.

Results

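The nuclear hormone receptors described here are 38 genes of the superfamily of DNA-binding transcription factors that includes the receptors for vitamin D, retinoids, thyroid hormone, steroids and oxysterols. They were found by gene symbol in a table of 56980 genes, and all 38 were present and annotated as protein-coding. The rule goes by name and not by a measured value, although the list was drawn up with earlier results of these data known. The cells were bone marrow mesenchymal stromal cells (MSCs) of wild-type male C57BL/6J mice from an in-house inbred colony, aged 14 weeks. From each of 4 mice, 100 cells that were negative for CD45, Ter119, CD31 and Sca1 and positive for CD51 and PDGFRa were sorted into 1 RNA-seq library. The study used these libraries as the stromal side of a comparison of ligands and receptors between MSCs and macrophages. All 4 libraries form one group, so no conditions were compared, and values are given in the order of mice 1, 2, 3 and 4.

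Nuclear receptors bind short DNA elements through paired zinc fingers and recruit coactivators or corepressors, mostly according to whether a lipid-soluble ligand is bound. Retinoid X receptors (RXRs) form heterodimers with many of the others, including the receptors for vitamin D, retinoic acid, thyroid hormone, oxysterols and fatty acids, whereas steroid receptors act as homodimers that are held by chaperones until hormone arrives. In skeletal cells vitamin D, glucocorticoids, oestrogen, retinoic acid and thyroid hormone are all known regulators of differentiation and matrix turnover.

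The libraries held between 22738604 and 43545349 counts on genes, and 3 counts, taken here as the lowest detectable value, corresponded to between 0.0689 and 0.132 CPM (counts scaled to 1000000 per library). Counts were converted to TPM, in which a count is divided by gene length and the library is scaled to 1000000. Genes are called expressed here where the median of the 4 TPM values exceeded 1. The genes of the antigens used to select the cells, Itgav (CD51) and Pdgfra, were above 1 TPM in every mouse, with a summed level between 43.6 and 62.6 TPM. Of the 3 listed genes for antigens used to remove cells, Ptprc and Pecam1 stayed at or under 0.264 TPM. Ly6a (Sca1) was at 0.0472, 8.95, 0 and 11.6 TPM, and no gene was listed for Ter119. All 6 genes of the niche stroma, Cxcl12 and Lepr among them, and all 4 osteoblast genes exceeded 1 TPM in every mouse. All 4 macrophage markers and all 3 hepatocyte markers had 0 counts, endothelial markers summed to at most 1.11 TPM with Cdh5 and Kdr at 0, and neutrophil markers summed to between 4.09 and 30.7 TPM. Erythroid markers summed to 3821, 21.1, 1336 and 277 TPM. The osteoblast genes summed to between 11337 and 22167 TPM, of which Ibsp alone gave 10570 to 20907, while Sp7, Alpl and Runx2 lay between 37.4 and 963 TPM. In bulk libraries such as these, fewer cells that carry a transcript cannot be told apart from less of it per cell.

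The P-box, a stretch at the base of the first zinc finger that reads the DNA half-site, sorts the receptors by sequence. It was located by a cysteine pattern in protein-coding transcripts (GENCODE M21), translated in each forward frame, and 35 of the 37 members searched had it. The other 2 were Nr0b1 and Nr0b2, which are known to lack a DNA-binding domain. Nr3c1, the glucocorticoid receptor, was not searched. The 18 bases below run 5′ to 3′ on the coding strand, and the capitals mark the codons of the residues at which receptors are known to differ in half-site choice. They are shown for the 7 receptors with the highest medians, which share a class, and for 1 member of each of the other 6 classes, so that the classes can be set against the levels.
Vdr: tgtGAAGGCtgcaagGGT
Nr1h2: tgtGAAGGCtgcaaaGGC
Thra: tgtGAGGGCtgcaagGGC
Rarg: tgtGAAGGCtgcaagGGC
Nr1h3: tgcGAGGGCtgcaagGGA
Rxrb: tgcGAGGGCtgcaagGGT
Rora: tgtGAAGGCtgcaagGGC
Nr2f6: tgcGAGGGCtgcaagAGT
Esr1: tgcGAAGGCtgcaagGCT
Esrra: tgtGAGGCCtgcaaaGCC
Pgr: tgtGGGAGCtgcaagGTC
Nr5a2: tgcGAAAGCtgcaagGGT
Hnf4a: tgtGACGGCtgcaagGGG

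The 35 members carried 30 different runs of 18 bases, which encode 7 classes of P-box residues. The largest class held 21 members and included Vdr, the RXRs and the receptors for thyroid hormone, retinoic acid and oxysterols. Rarg, Rora and Thrb share the same 18 bases. Thra, Rxra and Nr1i3 share another run, as do Rarb and Ppard. Outside that class, Nr2f6 belongs to the 3 COUP-type receptors, Esr1 pairs with Esr2, Esrra stands with the other oestrogen-related receptors, and Pgr is with the mineralocorticoid receptor Nr3c2.

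Of the 38 receptors, 15 had a median above 1 TPM and 23 did not. Among all protein-coding genes 44.2% passed the same threshold, so the receptors were not above that background. Above 1 TPM in every mouse were 11 receptors, where 30.1% of protein-coding genes met that criterion. The 4 expressed receptors that fell short of it were Nr2c1, Rara, Rxrg and Thrb. Another 11 receptors exceeded 1 TPM in some mice but not all, and 16 did so in none. Together the 38 genes summed to 263, 223, 329 and 173 TPM, a mean of 247 ± 65.9 (SD, n = 4). Averaged over the shares in each mouse, RXR partners made up 76.2% of the sum, orphan receptors (those with no settled physiological ligand) 9.83%, the 3 RXRs 8.28% and steroid receptors 5.72%. Without correction for length the steroid receptors summed above the RXRs, at 54.8 against 33.6 CPM.

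**Figure D1:**
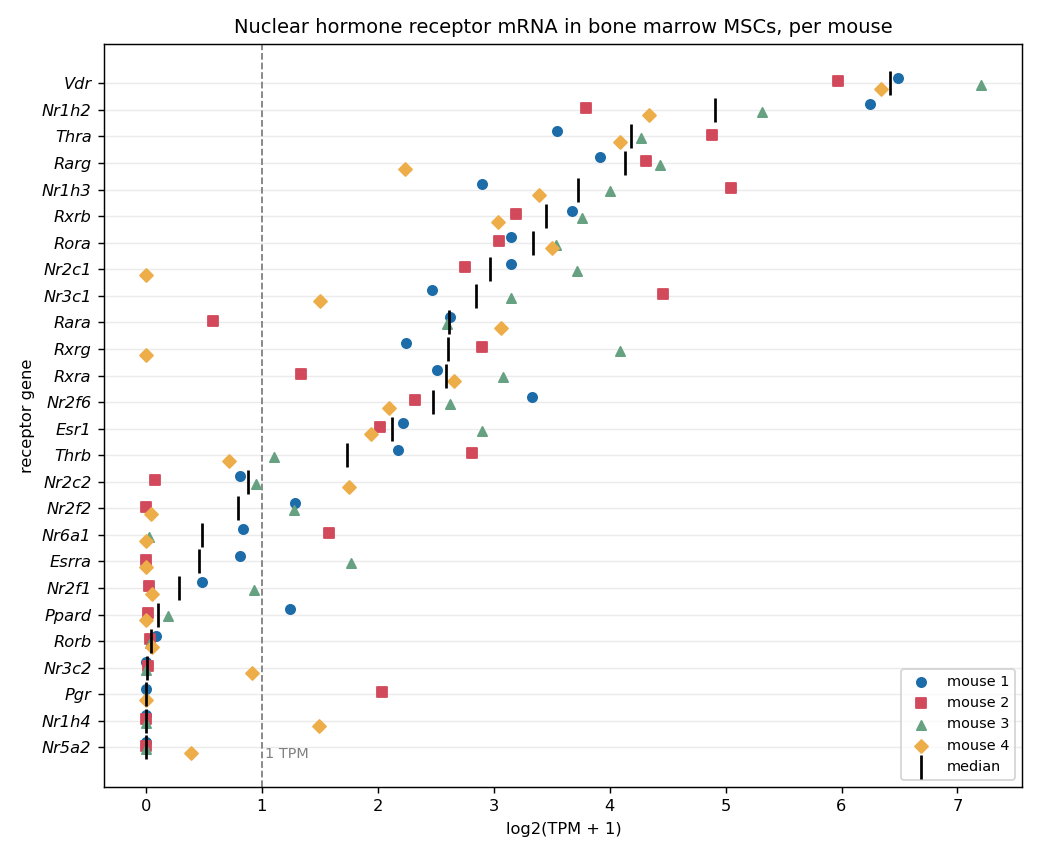
Level of each receptor gene in each mouse, on the axis log2(TPM + 1), for the 26 genes with at least 3 counts in a library. Points are single mice, the black bar is the median, and the dashed line is 1 TPM; 15 genes have a median right of the line, and Nr2c1 and Rxrg each have mouse 4 at 0.

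Vdr, the vitamin D receptor (ENSMUSG00000022479), was the highest receptor gene. It stood at 89.0, 61.7, 146 and 80.2 TPM from 8843, 3876, 14262 and 4681 counts. Its mean was 94.2 ± 36.4 TPM (SD, n = 4), and its median exceeded that of 95.3% of protein-coding genes. Vdr alone accounted for 33.9%, 27.6%, 44.4% and 46.3% of the summed receptor TPM. It exceeded the gene next in order, Nr1h2, in all 4 mice, by 1.58 ± 0.90 (SD, n = 4) on the log2(TPM + 1) scale. This was the single one of 14 neighbouring pairs in the order of medians whose difference was larger than its SD. Each of the other 13 was smaller than its SD, so the order within the 14 receptors below Vdr was not resolved step by step.

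In the GRCm38 annotation Vdr spans bases 97854425 to 97910630 of chromosome 15 and is read from the minus strand. The RefSeq window given here (chr15:97908247-97908546, minus strand, GRCm38.p6) runs from 250 bases before to 50 after a RefSeq start inside that span. It is shown because Vdr leads the group, with matches to the GC box GGGCGG in capitals.
Vdr: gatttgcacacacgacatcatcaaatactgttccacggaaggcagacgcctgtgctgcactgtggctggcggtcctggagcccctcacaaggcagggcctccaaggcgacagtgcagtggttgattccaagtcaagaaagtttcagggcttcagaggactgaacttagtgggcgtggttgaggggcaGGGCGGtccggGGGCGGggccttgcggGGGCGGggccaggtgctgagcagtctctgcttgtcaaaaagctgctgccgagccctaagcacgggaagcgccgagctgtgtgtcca

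That window holds 3 GC boxes on the printed strand, which start 63, 52 and 36 bases before the RefSeq start it is set on. Searched on both strands, the GC box occurred in 22 of 54 windows of 35 receptors (40.7%) and in 35.7% of all 32851 RefSeq windows of the same length. The nuclear receptor half-site AGGTCA occurred in 16.7% of receptor windows against 16.3% of all. The steroid half-site AGAACA was found in 9.26% against 19.0% and TATAAA in 11.1% against 13.6%. The median number of CpG dinucleotides was 13 in the 23 windows of expressed receptors, 10 in the 31 windows of the others and 7 in all windows. Windows of one gene overlap in part, and these shares are descriptions. No window was given for Thra, Nr3c1 or Nr5a1.

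None of the 4 listed genes that make or degrade active vitamin D was expressed at the median, though 3 of them exceeded 1 TPM in a single mouse. Cyp24a1, the catabolic enzyme that is a classical VDR target, was at 0, 0.0252, 0 and 1.85 TPM. Cyp2r1, which adds the hydroxyl group in liver, was at 0.484, 0, 0.0547 and 13.3 TPM. Mouse 4 was thus high in both, whereas the sterol hydroxylase Cyp27a1 was at 12.2 TPM in mouse 1 and had 0 counts in the others. Of the 4 listed VDR targets, Tnfsf11, which encodes the osteoclast factor RANKL, was expressed at the median with 0, 54.3, 11.2 and 0.130 TPM. It was highest in mouse 2, in which Vdr was lowest. Lrp5 was at or below 1.44 TPM and Trpv6 at or below 0.448 TPM in every mouse.

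All 3 RXRs, the shared partners, were expressed. Rxrb was at 11.8, 8.12, 12.6 and 7.21 TPM, a mean of 9.93 ± 2.66 (SD, n = 4). Rxra was at 4.69, 1.53, 7.47 and 5.32 TPM. Rxrg was the most uneven, at 3.74, 6.46, 16.02 and 0 TPM from 151, 165, 636 and 0 counts, and mouse 4 had none although its other RXRs lay within the range of the other mice or just below it. Rxra was below Rxrb in all 4 mice, by a mean log2(TPM + 1) difference of -1.02 ± 0.64 (SD). Flipping the signs of the 4 differences in all ways, a two-sided exact permutation test, gave p = 0.125 (adjusted p = 0.275 over 11 pairs). With 4 mice that is the smallest p the test allows, so no pair of receptors could reach 0.05.

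Summed RXR expression was 20.2, 16.1, 36.1 and 12.5 TPM, and the sum of their 13 listed partners was 205, 161, 245 and 138 TPM. Partners thus exceeded RXRs by a factor of 10.1, 9.97, 6.79 and 11.1. Without Vdr the factor was 5.75, 6.14, 2.74 and 4.66, lowest in mouse 3, in which Rxrg was highest. Of the 13 partners, 7 were expressed: Vdr, Thra, Thrb, Rara, Rarg, Nr1h2 and Nr1h3.

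**Figure D2:**
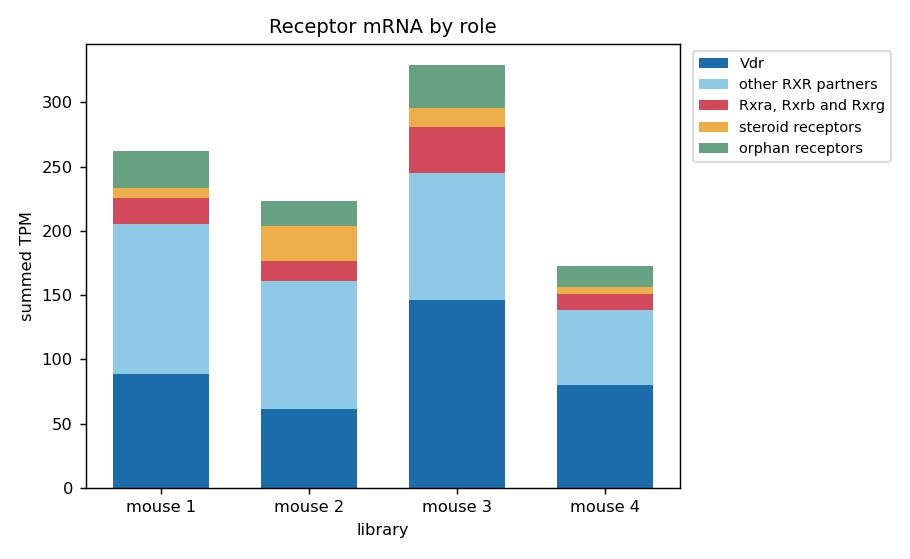
Summed TPM of the receptors in each of the 4 libraries, stacked by role, with Vdr drawn apart from the other RXR partners. Bars start at 0 and end at 263, 223, 329 and 173 TPM; Vdr and the other partners fill most of each bar.

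The liver X receptors sense oxysterols and control cholesterol efflux and fatty acid synthesis. Nr1h2 (LXRb) was at 74.8, 12.9, 38.7 and 19.2 TPM, a mean of 36.4 ± 27.9 (SD, n = 4). Nr1h3 (LXRa) was at 6.46, 32.1, 15.05 and 9.47 TPM, a mean of 15.8 ± 11.5. The mouse that was highest for Nr1h3, mouse 2, was lowest for Nr1h2, and mouse 1 was the reverse. Nr1h2 was therefore higher in 3 of 4 mice, with a mean difference of 1.09 ± 1.88 (SD) in log2(TPM + 1) that was smaller than its spread (p by exact permutation = 0.375, adjusted p = 0.458). The order of the mice for Nr1h2 was also that of the 4 erythroid markers given above, and the part of erythroid RNA in its level was not tested. Among 5 LXR targets, 4 were expressed in every mouse. They were led by the desaturase Scd2 (median 17.1 TPM), the LDL receptor ubiquitin ligase Mylip (15.6) and the cholesterol exporter Abca1, which was at 11.8, 13.9, 12.4 and 23.8 TPM. Abcg1, the companion exporter, had 0 counts in all mice.

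Thyroid hormone receptors were both expressed. Thra was at 10.7, 28.5, 18.3 and 16.1 TPM, a mean of 18.4 ± 7.47 (SD, n = 4). Thrb was at 3.52, 6.02, 1.15 and 0.641 TPM and, with a median of 2.33 TPM, lay just inside the threshold. Thra was above Thrb in all 4 mice, and the mean difference of 2.50 ± 0.94 (SD) in log2(TPM + 1) was larger than its spread (p by exact permutation = 0.125, adjusted p = 0.275). Of the exonic bases of Thra, 5.70% lie over a gene on the opposite strand, and since counting was not stranded, reads there cannot be assigned. The deiodinases Dio1, Dio2 and Dio3, which activate or inactivate thyroid hormone, had 0 counts in all 4 libraries. Klf9, a direct target of both thyroid hormone and glucocorticoid receptors, was at 36.5, 77.6, 40.3 and 44.2 TPM and was the expressed one of the 4 thyroid hormone targets listed.

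Retinoic acid receptors divided by gene. Rarg was at 14.1, 18.9, 20.6 and 3.70 TPM, a mean of 14.3 ± 7.60 (SD, n = 4). Rara was at 5.17, 0.494, 5.05 and 7.36 TPM, a mean of 4.52 ± 2.89. Rarg was higher in mice 1 to 3 and Rara in mouse 4, so the mean Rara minus Rarg difference of -1.51 ± 1.88 (SD) did not exceed its spread (p by exact permutation = 0.25, adjusted p = 0.344). Rarb, which is itself switched on by retinoic acid, had 1 count in mouse 4 and 0 in the others. Moreover, 34.1% of its exonic bases overlap Top2b on the opposite strand. Reads there may have been left uncounted, so the level of Rarb may be understated.

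Rarb is known for a retinoic acid response element in its promoter, a direct repeat with a spacer. The motif searched was GTTCA, then any 5 bases, then AGTTCA, on both strands, and its match is in capitals in a Rarb window (chr14:16575427-16575726, minus strand, GRCm38.p6, RefSeq), shown because the gene was silent at this depth beside expressed Rarg and Rara.
Rarb: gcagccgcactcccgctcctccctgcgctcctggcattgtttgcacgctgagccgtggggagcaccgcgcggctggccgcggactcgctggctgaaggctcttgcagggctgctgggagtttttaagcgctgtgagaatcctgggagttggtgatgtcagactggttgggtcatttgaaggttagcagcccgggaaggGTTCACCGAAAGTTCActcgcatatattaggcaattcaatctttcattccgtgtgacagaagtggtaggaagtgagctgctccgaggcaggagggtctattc

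The match starts 52 bases before the RefSeq start that the window is set on. That start lies inside the annotated span of Rarb, bases 16430839 to 16819156 of chromosome 14. The motif was found in 1 of 54 receptor windows (1.85%), that of Rarb, and in 11 of all 32851 windows (0.0335%). It was searched because Rarb is known for it, so these shares cannot be set against each other. Retinoid handling genes were mixed, with 4 of 11 expressed. Dhrs3, a reductase that returns retinal to retinol and is induced by retinoic acid, was at 96.6, 82.0, 128 and 36.8 TPM, with a mean of 85.9 ± 37.99 (SD, n = 4) beside a mean of 94.2 TPM for Vdr. Like Rarg, it was lowest in mouse 4. Aldh1a2, which makes retinoic acid, was at 0, 8.46, 2.15 and 9.57 TPM. Crabp1 and Crabp2, the cytosolic retinoic acid binders, had 0 counts in all mice. Of 7 listed RAR targets 3 were expressed, among them Dhrs3 and the transglutaminase Tgm2, which was at 18.7, 26.4, 40.1 and 11.4 TPM.

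The other 6 RXR partners, Rarb included, had medians under 1 TPM. Ppard, a fatty acid sensor, was at 1.37, 0.0120, 0.139 and 0 TPM from 181, 1, 18 and 0 counts, which is a signal mainly in mouse 1. Ppara, its relative of the fasting liver, had 0 counts in every library, and the difference of 0.36 ± 0.59 (SD) in log2(TPM + 1) was smaller than its spread (p by exact permutation = 0.25). The bile acid receptor Nr1h4 had 43 counts (1.81 TPM) in mouse 4 and none in the other mice. The xenobiotic receptors Nr1i2 and Nr1i3 had 0 counts throughout. Of the exonic bases of Nr1i3, 74.9% overlap Tomm40l, which was counted in every mouse. No option to count pairs shared between genes was stated, so reads there may have gone to neither gene. The 0 for Nr1i3 thus rests mainly on its other bases. Of 8 genes usually listed as PPAR targets, 6 were above 1 TPM in every mouse. The members include Ppara and Ppard, and other PPAR genes were not analysed here. The lipase inhibitor Angptl4 was at 47.7, 261, 229 and 120 TPM, and Pdk4 and Acadm had medians of 29.6 and 22.0 TPM.

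Among the 5 steroid receptors, 2 were expressed. Nr3c1, which encodes the glucocorticoid receptor, was at 4.54, 21.03, 7.88 and 1.83 TPM from 614, 1798, 1046 and 145 counts, a mean of 8.82 ± 8.51 (SD, n = 4). Its mouse 2 value stood above the rest, as did that of Nr1h3 and Thra. Mouse 2 was also the highest for 5 of 6 niche stromal genes, and lowest for the sixth, Prrx1. Their sum of 1067, 4644, 2387 and 1243 TPM was carried by Cxcl12, at 983, 4329, 2224 and 1079 TPM. It was the highest too for 3 of 4 adipocyte markers, at 199, 936, 438 and 234 TPM in sum with Plin1 at 0. The part of these cell states in the receptor levels was not tested. Nr3c1 exceeded the mineralocorticoid receptor Nr3c2 in all 4 mice, by 2.66 ± 1.61 (SD) in log2(TPM + 1) (p by exact permutation = 0.125, adjusted p = 0.275). Nr3c2 itself had 0, 1, 0 and 59 counts, so its signal came from mouse 4.

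Of 6 listed glucocorticoid targets 5 were expressed at the median and 4 were above 1 TPM in every mouse. The phosphatase gene Dusp1 was at 181, 214, 268 and 190 TPM. Tsc22d3 (GILZ), an anti-inflammatory mediator, was at 31.7, 76.7, 121 and 39.0 TPM. Fkbp5, both a target and a chaperone that restrains the receptor, was at 1.83, 18.8, 2.52 and 0.184 TPM. It was thus highest and lowest in the same mice as Nr3c1, but no other listed glucocorticoid target was. Dusp1 and Tsc22d3 were highest in mouse 3. The enzymes that interconvert active and inactive glucocorticoid were detected each in 1 mouse, Hsd11b1 in mouse 4 (6.08 TPM) and Hsd11b2 in mouse 3 (1.26 TPM).

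Esr1, the oestrogen receptor alpha, was at 3.65, 3.05, 6.46 and 2.83 TPM, a mean of 3.997 ± 1.68 (SD, n = 4), in male mice. With the longest transcript as length its mean was 6.73 TPM. Esr2 had 0 counts in all 4 libraries. The difference was 2.27 ± 0.44 (SD) in log2(TPM + 1), with Esr1 higher in every mouse (p by exact permutation = 0.125, adjusted p = 0.275). With Esr2 at 0 the difference could not be negative, so its direction and p follow from the detection of Esr1 in every mouse. Cyp19a1, the aromatase that makes oestrogen, had 0 counts, and of 3 oestrogen targets Igfbp4 was expressed, at 237, 904, 997 and 244 TPM, whereas Tff1 was at 0. Pgr, the progesterone receptor, had 294 counts (3.09 TPM) in mouse 2 and 0 in the others, where 3 counts would have been between 0.0200 and 0.0340 TPM.

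Orphan receptors were 15 in number and 3 were expressed. Nr0b1 and Nr0b2, which lack a DNA-binding domain, were grouped apart from these and are given beside the last of them. Rora, which shapes circadian and metabolic transcription, was at 7.89, 7.27, 10.6 and 10.3 TPM, a mean of 9.02 ± 1.69 (SD, n = 4). Its coefficient of variation of 18.7% was the lowest of the 15 expressed receptors. Its paralogue Rorb had 12, 3, 5 and 4 counts and never exceeded 0.0616 TPM, and the gap between them was 3.26 ± 0.25 (SD) in log2(TPM + 1) in the same direction in all 4 mice (p by exact permutation = 0.125, adjusted p = 0.275). Of the 5 pairs whose difference exceeded its spread, this one had the smallest SD. With Rorb never above 0.0616 TPM, that SD is nearly that of Rora alone.

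Nr2c1 (TR2), a testicular receptor that represses embryonic globin genes with its relative Nr2c2, was at 7.87, 5.76, 12.1 and 0 TPM from 638, 295, 965 and 0 counts. Nr2c2 (TR4) was at 0.750, 0.0542, 0.930 and 2.36 TPM, and with a median of 0.840 TPM it lay just outside the threshold. The mouse without Nr2c1 was therefore the one highest for Nr2c2. Nr2c1 was higher in 3 of 4 mice, and the mean difference of 1.51 ± 2.18 (SD) in log2(TPM + 1) was smaller than its spread (p by exact permutation = 0.25). The Nr2c2 values are uncertain because 30.7% of its exonic bases overlap Mrps25 on the opposite strand and 27.1% of its longest transcript has a near-identical copy in 1 other gene.

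Of the COUP-type receptors, which mark mesenchymal and venous lineages among others, Nr2f6 was expressed, at 9.07, 4.01, 5.14 and 3.28 TPM. More of its exonic bases (54.4%) overlap the opposite-strand gene Ocel1 than not. Counts on Ocel1 were 518, 0, 149 and 79 and those on Nr2f6 476, 133, 265 and 101. Without strand the reads of the overlap cannot be told apart. They may have been left out of both genes, which would make the Nr2f6 values too low. Nr2f2 was at 1.44, 0, 1.43 and 0.0337 TPM and Nr2f1 at 0.402, 0.0176, 0.909 and 0.0380 TPM. Both were seen in mice 1 and 3 and were at or under 3 counts in mice 2 and 4, and their difference of 0.28 ± 0.39 (SD) was smaller than its spread (p by exact permutation = 0.5).

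The other orphan receptors were sporadic. Esrra, a regulator of mitochondrial genes, was at 0.751, 0, 2.40 and 0 TPM, and its relatives Esrrg and Esrrb had 1 count and none. Esrra was above Esrrg in 2 of 4 mice, and the difference of 0.64 ± 0.85 (SD) in log2(TPM + 1) did not exceed its spread (p by exact permutation = 0.5). All 5 listed targets of the oestrogen-related receptors were above 1 TPM in every mouse, among them the respiratory chain genes Atp5b (433, 253, 425 and 314 TPM) and Cox5a (123, 111, 137 and 108 TPM). Nr6a1, a germ cell factor, was at 0.788, 1.99, 0.0160 and 0 TPM. Nr5a2 (LRH-1), a factor of liver and pancreas, had 19 counts (0.312 TPM) in mouse 4 alone, and Nr0b2, its corepressor SHP, had 1 count there. Nr5a1 and Nr0b1 of the steroid-producing tissues, Hnf4a of the liver and Nr2e1 of neural stem cells had 0 counts in every mouse.

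**Figure D3:**
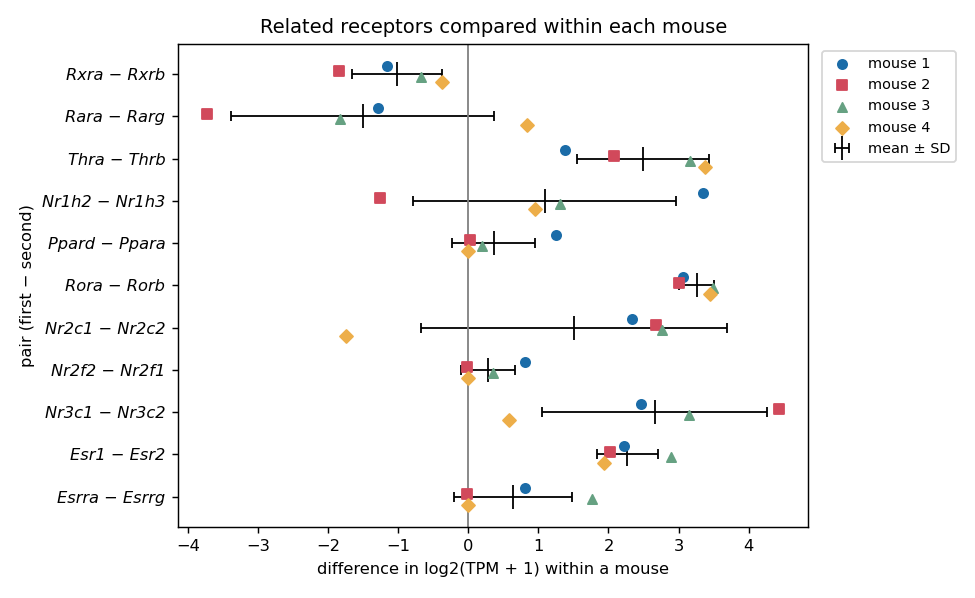
Difference in log2(TPM + 1) between 11 pairs of related receptors, first minus second, with each mouse as a point and the mean ± SD as bars. In 5 pairs the mean lies further from 0 than its SD, from Rxra minus Rxrb at -1.02 to Rora minus Rorb at 3.26, and in those all 4 mice fall on one side.

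Presence itself was uneven between mice. At least 3 counts in at least 1 mouse were found for 26 receptors, and 15 of these reached them in every mouse while 11 reached them in some only. Among protein-coding genes with 3 counts in a mouse, 40.1% were detected in this partial way, a share close to that of the receptors. Detection in a single mouse applied to 4 receptors, Pgr in mouse 2 and Nr3c2, Nr1h4 and Nr5a2 in mouse 4. Mice 2 and 4 were the shallower libraries and were also those with Ly6a above 1 TPM. There the 3 listed antigen genes of removed cells summed to 9.12 and 12.0 TPM against 0.172 and 0.0465 TPM in mice 1 and 3. Ly6a gave 8.95 and 11.6 TPM of these sums. Erythroid markers went the other way, at 3821 and 1336 TPM in mice 1 and 3 against 21.1 and 277 in mice 2 and 4. The part of other cells in the signals of these 4 receptors was not tested. Receptors with at least 3 counts numbered 22, 19, 22 and 19, more in the deeper libraries of mice 1 and 3, although over all protein-coding genes mouse 4 had 50.7% detected and mouse 1 had 50.8%. For the 9 receptors at 0 in all mice, 3 counts would have been between 0.0282 and 0.161 TPM, so levels under that were not detectable at this depth. For Nr1i3 that limit is too low where reads shared with Tomm40l were left uncounted. These limits cover counting error only, and Nr2c1 had 0 counts in mouse 4 beside 638, 295 and 965 in mice 1 to 3.

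The spread between mice was described by the coefficient of variation. For the 11 receptors with a mean from 1 to 10 TPM, the median coefficient of variation was 63.9% (range 18.7% to 104%), and the median over all 8584 genes of that range was 89.6%. For the 5 receptors from 10 to 100 TPM it was 53.0% against 42.4% for 4673 genes. The receptors thus lay below the median of all genes in the lower range and above it in the higher one, and these differences were not tested.

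The genes that receptors share as cofactors and chaperones were mostly expressed. Of 17 coactivators and corepressors 15 were expressed at the median and 13 were above 1 TPM in every mouse, where 44.2% and 30.1% of protein-coding genes were. They were led by the corepressor components Gps2, Hdac3 and Ncor1. Ncor1 was at 14.0, 19.6, 17.1 and 23.6 TPM, whereas Gps2 was at 59.0, 53.7, 53.6 and 1.21 TPM, with mouse 4 far below the rest. Ppargc1a (PGC-1a), the inducible coactivator of energy metabolism, had 0 counts in all mice, and its relative Ppargc1b was at 0 in mice 1 and 2. All 8 chaperone genes were expressed at the median and 7 in every mouse, with Hsp90ab1 at a median of 799 TPM, Hsp90aa1 at 133 and Fkbp4 at 132. Of 27 genes that make, carry or degrade ligands 7 were expressed, and 2 of them, Dhrs3 included, in every mouse. Of 40 distinct target genes 24 were expressed and 21 were so in every mouse. Over the 83 distinct genes measured, 51 passed, and 10 had 0 counts in all mice. These genes also answer to other regulators, and no list was tested for being above other genes.

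**Figure D4:**
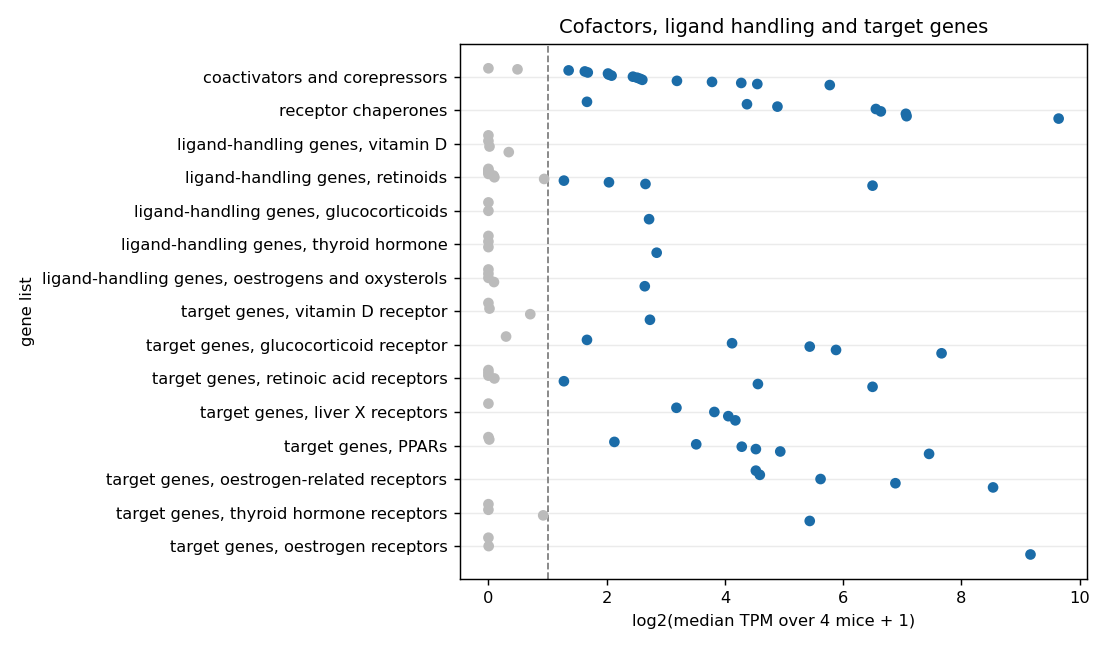
Median TPM over 4 mice of each listed pathway gene, on the axis log2(median TPM + 1), with one line per list. Blue points are above 1 TPM (dashed line) and grey points are not; 15 of 17 cofactors and all 8 chaperones are right of the line, and all 4 vitamin D handling genes are left of it.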

How the data were processed

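Full-length cDNA was made by template switching from poly(A) RNA of 100 sorted cells per mouse, amplified by PCR and tagmented. The authors deposited raw counts per gene, without normalization. According to the labels and the methods for these libraries, bcl2fastq 2.20.0, STAR 2.7.10 on GRCm39 and featureCounts (Subread 1.6.5) were used. Uniquely mapped pairs were counted on exons, with no option given for strand or for pairs shared between genes. No column of sample values was left unused.

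TPM was computed (Python 3.11.15, pandas 2.3.3) from merged exon lengths of GENCODE M21 on GRCm38, so a gene whose exons changed between builds has a TPM off by that ratio. For 4855 genes no length was found, and they have no TPM. The code was tested on simulated data. Total counts were 22738604 to 43545349 per mouse, and limits from 3 counts cover counting error only, as no molecular identifiers were stated. Related receptors were compared within mice on log2(TPM + 1) by exact sign-flip permutation with Benjamini-Hochberg adjustment. BLAST 2.17.0 was used to look for near-identical transcripts (95% identity over 100 bases). TMM factors (edgeR 4.0.16, R 4.3.3) were an alternative scaling. Samples are separate mice by their titles.

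The members, lists and tests were chosen with earlier results of these data known, and role groups, the RXR ratio and the motifs after the values were seen. Expressed members are named with each mouse's value. The others are given in groups, with values for each mouse where one exceeded 1 TPM, and from each list up to 3 of the highest genes and those at 0. Exceptions named for their values are the vitamin D, retinoid and glucocorticoid genes, Lrp5, Trpv6 and Fkbp5. Protein domains were planned and replaced by P-box codons from transcripts. Some listed genes are not reported here.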

Additional observations from a re-analysis of the deposited data

Results flagged for a closer look

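In 5 receptors 1 mouse stood apart from the other 3, with the gap to the nearest mouse divided by the whole range above the Dixon 95% critical value for 4 samples. The ratio was 0.899 for Ppard, high in mouse 1, and 0.984 for Nr3c2, high in mouse 4. It was 1 for Pgr, present in mouse 2, 1 for Nr1h4 and 1 for Nr5a2, both present in mouse 4, since the other mice had 0 counts. Of the pair differences, Ppard minus Ppara reached 0.849 with mouse 1 high, and Nr2c1 minus Nr2c2 reached 0.906 with mouse 4 low at -1.75 against 2.34 to 2.77 in the other mice. These are 7 of 40 values compared, where chance alone gives about 2 of 40. The count is no evidence of an excess, since a gene detected in 1 mouse has a ratio of 1 by construction and Ppard minus Ppara repeats Ppard.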

How the results depend on the processing

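The mean difference of no pair of receptors changed sign under any alternative run, but sizes shifted. Without correction for length, on log2(CPM + 1), Rxra minus Rxrb was -0.69 (p by exact permutation = 0.25). In mouse 4 Rxra had 300 counts and Rxrb 296, so Rxra was not below Rxrb there. Nr2c1 minus Nr2c2 was 0.61 on that scale (p by exact permutation = 0.75). With a pseudocount of 0.1, Rora minus Rorb was 6.05, Esr1 minus Esr2 5.28, Nr3c1 minus Nr3c2 5.09, Esrra minus Esrrg 1.88 and Ppard minus Ppara 1.32. Leaving out mouse 1 gave 0.33 for Nr1h2 minus Nr1h3, 0.07 for Ppard minus Ppara and 0.11 for Nr2f2 minus Nr2f1. Without mouse 2, Nr1h2 minus Nr1h3 was 1.87 and Rara minus Rarg -0.77. Esrra minus Esrrg was 0.26 without mouse 3, and without mouse 4 Nr2c1 minus Nr2c2 was 2.60 and Rara minus Rarg -2.29. With a threshold of 5 TPM, 7666 genes passed in place of 11948 and 6 receptors passed in every mouse in place of 11. Without correction for length, the receptors summed to 542 CPM in place of 247 TPM, and 17 of 29 receptor means moved by more than their SD. CPM and TPM are different units, so these shifts include the change of unit and do not measure instability alone. With the longest transcript as length, Esr1 moved to a mean of 6.73 TPM and Thra to 27.1. The 15 expressed receptors were joined by Nr2c2 and Nr2f2 with the longest transcript as length or at 0.5 TPM, and by these and Nr6a1 without length. A mean in place of the median added Nr2c2. Leaving out mouse 2 or mouse 4 added Nr2f2, a minimum of 10 counts removed Nr2c1 and Rxrg, and 5 TPM removed Esr1, Nr2f6 and Thrb. TMM factors changed none of the 15. Among the alternatives added after seeing the data, lack of length correction gave sums of 370.2 CPM for RXR partners, 33.6 for RXRs, 54.8 for steroid receptors and 83.6 for orphan receptors, so that steroid receptors passed RXRs, and a factor of 11.4 for partners over RXRs. Pairs of receptors were compared within mice, and with one group no samples could be paired between groups. Low counts, 100 cells per library and lengths from another build limit the receptors near 1 TPM most.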
